A study of Caenorhabditis elegans with 7 samples.

Results

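Touch receptor neurons are the cells with which Caenorhabditis elegans senses gentle touch along its body, and 3 genes of this cell type were followed in first-stage (L1) larvae that lack a functional ahr gene. The genes are mec-4, mec-7 and alr-1. They were taken by name from the deposited value table, in which the supplied annotation gives 959 different genes, and they are 3 of the 781 named genes whose table row could be tied to 1 spot of the array files. Each has 1 table row and 1 spot. The table holds 1290 rows of an array of 23232 spots. How its rows were chosen is not stated, but in a limma fit over the table alone 84.5% of them passed at an adjusted p under 0.05. Being in the table, and the direction there, are therefore not independent evidence.

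In the worm, a sodium channel of the DEG/ENaC family opens when the body wall is touched, and MEC-4 is its core subunit. The channel works in neurites filled with unusually thick microtubules that are built from the beta-tubulin MEC-7. Both genes are switched on by the transcription factors UNC-86 and MEC-3, and ALR-1, a homeodomain protein, helps to keep that programme on. AHR-1, the worm counterpart of the aryl hydrocarbon receptor, is known to influence whether a postembryonic neuron of the anterior body takes the touch receptor fate or one like that of the branched nociceptor PVD.

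The series holds 4 samples of an ahr-mutant strain and 3 of the wild type (N2), both collected as L1 larvae that had hatched from harvested eggs on plates with E. coli and liquid. The mutation is described only as leaving the ahr gene nonfunctional, with no allele named, and no treatment distinguishes the strains. Total RNA of whole larvae was copied into Cy3-labelled cDNA and hybridized to 1 spotted array per sample. The mutant titles speak of biological samples, but separate cultures are not stated, so the p-values may reflect technical spread alone.

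Between 21942 and 22593 spots per array had a positive signal, and array medians of these signals ranged from 52277 to 90919 intensity units. The medians were 62372.5, 88841.5, 90919 and 83351 in ahr-mutant replicates 1 to 4, and 59138, 52277 and 66600 in wild-type replicates 1 to 3. Mutant replicates 2 to 4 were thus brighter than every wild-type array, and the deposited signals given below include this difference. ahr-1 itself has no named row and was not analysed here, so the mutation itself could not be checked on the arrays. The file of ahr-mutant replicate 1 lists its spots in another order than the other 6 files. Its rank correlations with them lay between -0.0201 and 0.0368 as deposited and between 0.653 and 0.806 after 16850 spots were re-placed, against 0.599 to 0.785 among the other 6. For mec-4 and mec-7 the value of that array was located by its exact table value, at 1 position in the file. The table has no value of it for alr-1. The alr-1 signal of that array was read from the position fixed by the located table values on either side of it, and 16 located values share its shift. The quantile-normalized differences of the 3 genes, and of the other listed neuronal and homeobox genes with a spot, are given below with and without that array. The values with the surroundings subtracted and the correlations are given only with it.

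mec-4 had a higher mean in the mutants, but the difference did not pass the test across all spots. The deposited signals of its spot were 192340, 132187, 132609 and 85770 in ahr-mutant replicates 1 to 4. They were 52362, 37155 and 36250 in wild-type replicates 1 to 3. Every mutant signal was above every wild-type signal, and replicate 1 was the highest of the mutants. After log2 quantile normalization the mutants had 17.64, 16.68, 16.58 and 16.15 in the same order, and the wild types 15.93, 15.57 and 15.17. The lowest mutant and the highest wild type thus lay close together, 16.15 against 15.93, while the groups did not overlap.

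The mec-4 means were 16.76 ± 0.63 (SD, n = 4) in the mutants and 15.56 ± 0.38 (SD, n = 3) in the wild type. The log2 difference of 1.20 ± 0.42 (SE; 95% interval 0.27 to 2.14) is a 2.30-fold higher level. The limma adjusted p over 22476 spots was 0.555, the unadjusted p was 0.0166, and the exact two-sided permutation test over 35 splits gave p = 0.0571. Without ahr-mutant replicate 1 the mec-4 difference was 0.91 (1.88-fold, n = 3 against 3; limma adjusted p = 0.524). Over all spots tested, 0.0089% passed at an adjusted p under 0.05, and neither mec-4 nor mec-7 nor alr-1 was among them. A bulk measurement of whole larvae cannot tell a change in the number of touch receptor neurons from a change in RNA per neuron, and this holds for every gene named here.

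mec-7 had the largest difference of the 3 genes, and it did not pass either. The deposited signals were 223561, 203077, 311517 and 165135 in ahr-mutant replicates 1 to 4, against 41943, 45791 and 61176 in the wild types. The lowest mutant signal was thus well above the highest wild-type signal before any normalization, on arrays that differed in brightness. Normalized log2 signals were 17.84, 17.31, 17.75 and 17.30 in the mutants and 15.61, 15.91 and 15.97 in the wild type. The groups stood apart, with 17.30 as the lowest mutant and 15.97 as the highest wild-type value.

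The mec-7 means were 17.55 ± 0.29 (SD, n = 4) and 15.83 ± 0.19 (SD, n = 3). The log2 difference was 1.72 ± 0.32 (SE; 95% interval 1.00 to 2.43), a 3.28-fold higher level in the mutants. Its unadjusted limma p of 0.000368 became 0.211 after adjustment over all spots. The exact permutation p was 0.0286, the smallest that 35 splits allow. Without ahr-mutant replicate 1 the mec-7 difference was 1.62 (3.07-fold, n = 3 against 3; limma adjusted p = 0.231). At an unadjusted p under 0.05, where mec-4 and mec-7 both stood, 7.91% of all spots differed, 4.24% with higher means in the mutants. Of the 781 named spots, 306 had higher means in the mutants, 49 had a higher difference than mec-7 and 107 a higher one than mec-4. In size, regardless of direction, 97 of the 781 had a larger difference than mec-7 and 243 a larger one than mec-4.

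alr-1 did not differ detectably between the strains. The deposited signals were 55520, 109635, 104681 and 93228 in ahr-mutant replicates 1 to 4, and 71560, 92001 and 112156 in the wild types. Normalized log2 signals were 15.95, 16.41, 16.28 and 16.29 in the mutants and 16.36, 16.97 and 16.94 in the wild type. Mutant replicate 2 lay above wild-type replicate 1, so the groups overlapped, and replicate 1 was the lowest mutant.

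The alr-1 means were 16.23 ± 0.20 (SD, n = 4) in the mutants and 16.76 ± 0.34 (SD, n = 3) in the wild type. The log2 difference was -0.53 ± 0.32 (SE), with a 95% interval from -1.25 to 0.20. That interval allows a mutant level between 0.421 and 1.15 times that of the wild type. The limma adjusted p was 0.684 and the exact permutation p 0.0571. Without ahr-mutant replicate 1 the alr-1 difference was -0.43 (1.35-fold lower, n = 3 against 3; limma adjusted p = 0.718). In size, 666 of the 781 named spots had a larger difference than alr-1, whose value was close to the median of -0.52 over those spots.

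**Figure D1:**
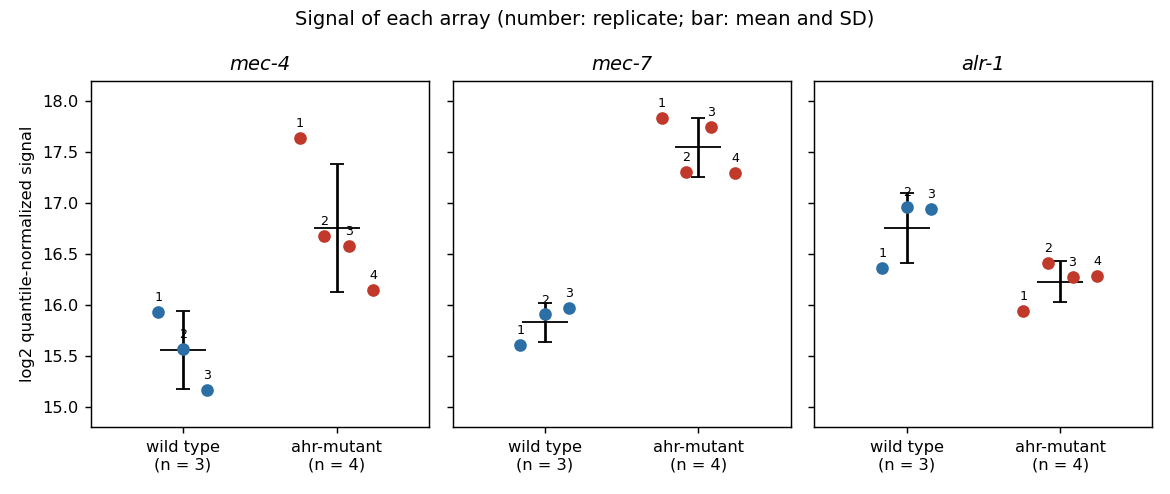
Normalized signal (log2) of mec-4, mec-7 and alr-1 on each array. Points are single arrays numbered by replicate (blue, wild type, n = 3; red, ahr-mutant, n = 4), and bars give the mean and SD. The mec-7 groups stand far apart (lowest mutant 17.30, highest wild type 15.97), the mec-4 groups are close (16.15 and 15.93), and the alr-1 groups overlap.

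Groups that do not overlap were not rare on these arrays. Of the 14726 spots with a value on all 7 arrays, 4.93% had every mutant above every wild type and 4.08% the reverse. Among the 673 named table spots with 7 values these shares were 38% and 42.3%. mec-4 and mec-7 belong to the first kind and alr-1 to neither.

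The authors' deposited table gives the same genes as ratios to a row constant. In the authors' deposited table mec-7 stands at 1.81, 1.15, 1.65 and 1 in the mutants and at 0.351, 0.445 and 0.463 in the wild type. For mec-4 the authors' deposited table has 2.99, 1.44, 1.35 and 1 in the mutants against 0.843, 0.695 and 0.528. alr-1, without a value of mutant replicate 1, has 1.04, 0.924 and 0.943 against 1, 1.49 and 1.42 in the authors' deposited table. Each of these rows matched its spot to within 0.0001 on the log2 scale, so they are the same measurements and not a second experiment.

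The 3 spots lie in different parts of the slide, whose 48 print blocks form 12 rows of 4. mec-4 was printed in slide row 12, mec-7 in slide row 11 and alr-1 in slide row 6. The strain difference of spots outside the deposited table changed along these rows, from a median of -0.46 in slide row 1 to 0.48 in slide row 12. Both genes with higher means thus lie where most other spots were also higher in the mutants, and alr-1 lies where the median was -0.07.

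Nearby spots were read around each gene, over a window of 11 by 11 spots within the block and outside the table. Around mec-4, 54 such spots had a log2 difference of 0.49 between the strains, against 1.20 for mec-4 itself. Around mec-7, 56 spots had 0.41, against 1.72. Around alr-1, 40 spots had -0.22, against -0.53. The genes therefore differed from their surroundings in the same direction as they differed between the strains, by 0.71, 1.31 and -0.31.

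The surroundings also varied by array. Around mec-4 the nearby spots deviated from their mean over 7 arrays by 0.67 on ahr-mutant replicate 1 and by -0.64 on wild-type replicate 3. Those are the arrays on which mec-4 itself was highest (1.39 above its mean) and lowest (a deviation of -1.08). Around mec-7 the nearby spots deviated by 0.36 and 0.58 on mutant replicates 1 and 3, where mec-7 was highest (1.03 and 0.93 above its mean). They deviated by -0.33, -0.21 and -0.23 on wild-type replicates 1 to 3, where mec-7 was lowest (-1.20, -0.90 and -0.84). On mutant replicates 2 and 4 the nearby spots lay below their mean, by -0.06 and -0.26, while mec-7 was 0.50 and 0.48 above its own. For alr-1 the nearby spots were highest on wild-type replicate 2 (0.71) and lowest on mutant replicate 1 (-0.56), as was alr-1 itself (0.51 and -0.51).

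**Figure D2:**
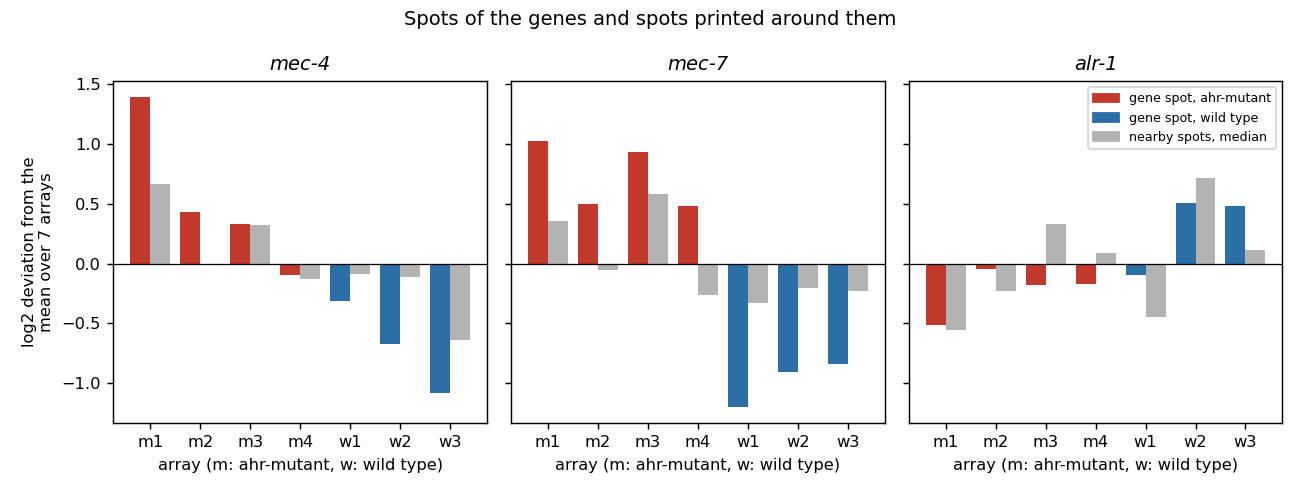
Deviation of each array from the mean over 7 arrays (log2), for the gene's own spot (coloured bars; red, ahr-mutant, blue, wild type) and for the median of the nearby spots (grey bars). The mec-4 and mec-7 spots lie above their surroundings on the 4 mutant arrays and below them on the 3 wild-type arrays, with a gap of under 0.1 for mec-4 on mutant replicates 3 and 4. On ahr-mutant replicate 1 the nearby spots of mec-4 and alr-1 stand at 0.67 and -0.56.

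With the surroundings subtracted, mec-7 remained apart between the strains. Its adjusted log2 signals were 17.48, 17.37, 17.16 and 17.56 in the mutants and 15.94, 16.11 and 16.21 in the wild type. The difference was 1.31 ± 0.26 (SE; 2.47-fold higher), with a limma adjusted p of 0.131. mec-4 had 16.97, 16.68, 16.26 and 16.28 against 16.01, 15.69 and 15.81, again without overlap. Its difference was 0.71 ± 0.29 (SE; 1.64-fold higher; limma adjusted p = 0.614). alr-1 had a difference of -0.31 ± 0.30 (SE; 1.24-fold lower; limma adjusted p = 0.861), and its groups overlapped. With this adjustment 4.03% of spots with 7 values had all mutants above all wild types and 4.33% the reverse, and 0.0356% passed at an adjusted p under 0.05.

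Within its slide row, mec-7 was above 98.0% of 1790 spots outside the table, and mec-4 above 89.7% of 1763. In slide row 6, 16.4% of 1810 such spots had a lower difference than alr-1. As 84.5% of the rows of the deposited table passed in a fit over that table alone, a high rank against spots outside it is not independent evidence. Among the 781 named spots, of which 306 had higher means in the mutants, 49 lay above mec-7 and 107 above mec-4. Subtracting block medians instead of nearby spots moved mec-4 by over 1.5 times, from 2.30-fold to 1.49-fold higher (limma adjusted p = 0.856). The mec-7 fold was then 2.35 (limma adjusted p = 0.294).

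**Figure D3:**
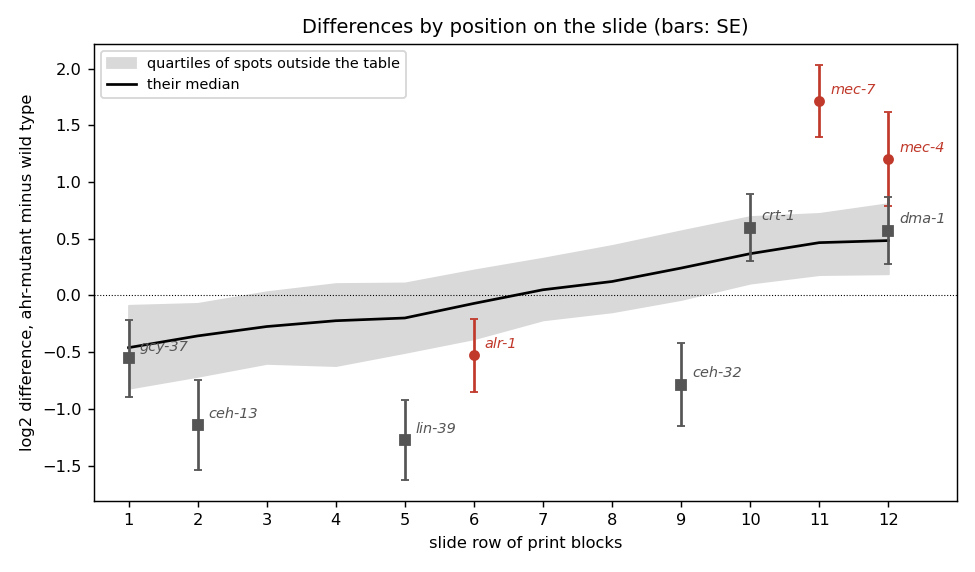
Difference between the strains (log2, ahr-mutant minus wild type) against the slide row of print blocks. The line and band give the median and quartiles of spots outside the table. Points with SE bars are the 3 genes (red) and the other listed genes with a matched spot (grey). The median runs from -0.46 to 0.48, with mec-7 at 1.72 and mec-4 at 1.20 above the band, lin-39 at -1.27 and ceh-13 at -1.14 below it, and ceh-32 at -0.79 below it in slide row 9.

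Other genes listed for touch receptor neurons, by expression or by function, were sparse among the named spots. Of 28 listed genes, 4 have a named row, and the other 24 were not analysed here. Those include mec-3 and unc-86, the selector genes, mec-10, a second channel subunit, and mec-12, the alpha-tubulin partner of mec-7. The fourth gene with a row is crt-1, which encodes calreticulin, an endoplasmic reticulum chaperone that the worm needs for the neuron death caused by hyperactive MEC-4. Its normalized log2 signals were 16.55, 16.20, 16.37 and 16.28 in the mutants and 15.78, 15.65 and 15.81 in the wild type, without overlap. The difference was 0.60 ± 0.30 (SE; 1.51-fold; limma adjusted p = 0.652). crt-1 lies in slide row 10, where other spots had a median of 0.37, and with the surroundings subtracted its difference was 0.16 and the groups overlapped. Without ahr-mutant replicate 1 the crt-1 difference was 0.53.

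None of these 4 genes passed, and 3 had higher means, as had 306 of the 781 named spots. Their median difference was 0.90, against -0.52 over the named spots and 0.02 over all spots tested. With the surroundings subtracted it was 0.44. As 84.5% of the rows of the deposited table passed in a fit over that table alone, the size of this median is not independent evidence.

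No other named row belongs to a tubulin gene or a DEG/ENaC channel gene. The lists held 17 and 30 genes, of which mec-7 and mec-4 were the respective ones with a row. Genes of GABA neurons (8 listed), whose RME subtypes AHR-1 is known to influence, and of other mechanosensory channels (9 listed) had no named row.

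alr-1 is 1 of 6 listed homeobox genes with a named row, the other 99 on that list were not analysed here, and all 6 had lower means in the mutants in the authors' deposited table. Of the 781 named spots, 475 had lower means as well. Each of the 6 has only 3 mutant values in the authors' deposited table. There, every gene of the lists with a lower mean has 3 mutant values and every one with a higher mean has 4. Among the 4 homeobox genes with a matched spot the median difference was -0.96, against -0.52 over the 781 named spots, and none passed. In 2 of them (lin-39 and ceh-13) every mutant was below every wild type. That held for 42.3% of the named table spots with 7 values. lin-39, the Hox gene of the mid-body, had 15.22, 15.23, 15.61 and 15.27 in the mutants and 15.996, 17.03 and 16.79 in the wild type. Its difference was -1.27 ± 0.35 (SE; 2.42-fold lower; limma adjusted p = 0.448), -1.01 with the surroundings subtracted and -1.24 without ahr-mutant replicate 1.

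ceh-13, the anterior Hox gene related to labial, had 18.32, 17.01, 16.93 and 17.62 in the mutants against 18.71, 18.58 and 18.54 in the wild type. Its difference was -1.14 ± 0.40 (SE; limma adjusted p = 0.565), and -0.81 with the surroundings subtracted. Mutant replicate 1 was the highest of the mutants for ceh-13, and without it the difference was -1.43 (limma adjusted p = 0.307). ceh-32, a gene of the sine oculis family, differed by -0.79 ± 0.37 (SE; limma adjusted p = 0.639), with overlapping groups. It lies in slide row 9, where other spots had a median of 0.24, and with the surroundings subtracted its difference was -1.08 (limma adjusted p = 0.320) and the groups no longer overlapped. Without ahr-mutant replicate 1 the ceh-32 difference was -0.62.

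The remaining pair of homeobox genes had no matched spot. For php-3, a posterior Hox gene, the authors' deposited table gives 0.638, 0.804 and 0.621 in mutant replicates 2 to 4 and 2.76, 2.08 and 1.30 in the wild type. For tab-1, whose name refers to the abnormal touch response of its mutants, the authors' deposited table gives 0.746, 0.735 and 1 against 1.47, 1.68 and 2.51. hlh-34, which encodes a protein of the bHLH-PAS family to which AHR-1 belongs, has 1.02, 0.944 and 0.825 against 1.21, 1.19 and 1 in the authors' deposited table, where the groups overlap.

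Of 12 listed genes of the PVD and FLP nociceptors, 1 had a named row. This was dma-1, which encodes the receptor that guides branching of PVD dendrites. Its normalized log2 signals were 15.71, 15.72, 15.89 and 16.01 in the mutants and 15.27, 15.32 and 15.20 in the wild type. The groups did not overlap, and the difference was 0.57 ± 0.29 (SE; 1.49-fold; limma adjusted p = 0.667). dma-1 lies in slide row 12 with a median of 0.48, and with the surroundings subtracted its difference was 0.27 and the groups overlapped. Without ahr-mutant replicate 1 the dma-1 difference was 0.61. gcy-37, a soluble guanylate cyclase of the oxygen-sensing neurons, differed by -0.55 ± 0.34 (SE; n = 3 mutants, with no value of replicate 1; limma adjusted p = 0.684) and by -0.05 with the surroundings subtracted.

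**Figure D4:**
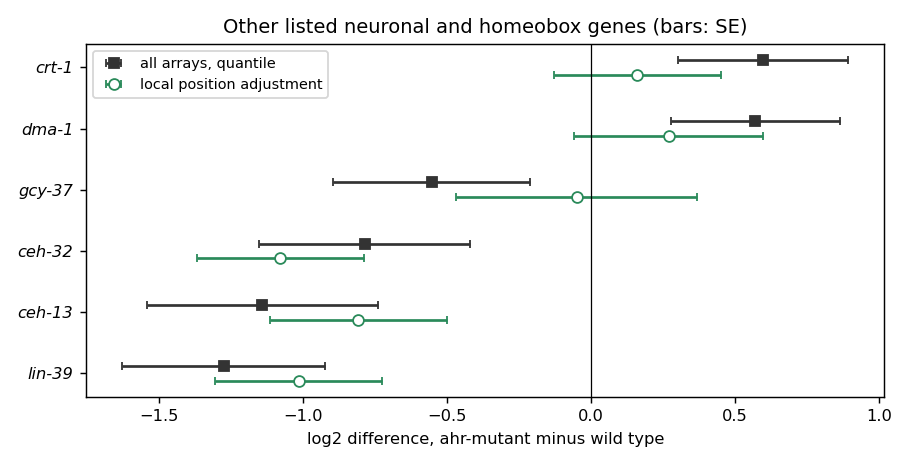
Difference between the strains (log2, ahr-mutant minus wild type) of the other listed genes with a matched spot, with SE bars. Filled squares are the quantile-normalized values and open circles those with the surroundings subtracted. lin-39 and ceh-13 stay below 0 in both (-1.27 and -1.01, -1.14 and -0.81), ceh-32 goes from -0.79 to -1.08, and crt-1, dma-1 and gcy-37 move towards 0.

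Markers of other cell types were as sparse. Pan-neuronal, muscle, intestine and germ line markers had no named row. Of 9 sperm markers 4 had one, and their summed normalized signal ranged from 974770 to 3427510 intensity units in the mutants and from 359712 to 789736 in the wild type. That sum is led by the brightest spots. None of the 4 passed, and 3 had higher means (nspd-7 by 2.40, nspd-10 by 1.70 and msp-78 by 1.07 on the log2 scale), as had 306 of the 781 named spots. ssp-19 had a lower mean (-0.75), with every mutant below every wild type. For nspd-7 and msp-78 every mutant was above every wild type, while the nspd-10 groups overlapped (lowest mutant 18.617, highest wild type 18.623). Of the named table spots with 7 values, 38% had every mutant above every wild type and 42.3% the reverse. The nspd-7 signals of mutant replicates 1 to 4 were 18.035, 18.30, 20.73 and 17.73, so replicate 3 stood far above the others. With the surroundings subtracted the differences were 2.04, 1.26, 0.57 and -0.36 for nspd-7, nspd-10, msp-78 and ssp-19. The nspd-10 and ssp-19 groups then overlapped. The 1 hypodermal marker with a row, dpy-14, differed by -1.63 (n = 3 mutants; limma adjusted p = 0.333), and by -0.92 with the surroundings subtracted (limma adjusted p = 0.501). What part other cell types or stages had in the values of the 3 genes was not tested.

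The pattern of each gene over the 7 arrays was compared with those of the 672 other named spots that had all values. The likeness is Pearson's correlation of normalized log2 signals, given as a description, since these spots share arrays and were compared on the same strains. The spots most like mec-4 were arf-5 (0.977), which encodes a small GTPase of the ARF family, M01E11.1 (0.957) and syf-2 (0.942), related to a splicing factor. All 3 lie in slide row 12, as mec-4 does. With the surroundings subtracted their correlations with mec-4 were 0.942, 0.789 and 0.318.

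The spots most like mec-7 were F22E12.1 (0.995), hrpc-1 (0.986) and the transporter gene slc-17.9 (0.978), all in slide row 11 like mec-7. Their correlations with mec-7 after subtracting the surroundings were 0.973, 0.980 and 0.981. slc-17.9 had 18.53, 18.32, 18.28 and 18.28 in the mutants and 16.14, 16.19 and 16.16 in the wild type, a difference of 2.18 (limma adjusted p = 0.0848).

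The spots most like alr-1 were cep-1 (0.972), the worm relative of the tumour suppressor p53, F54C9.7 (0.966) and the F-box gene fbxa-115 (0.953), in slide rows 4, 3 and 4. After subtracting the surroundings these correlations were 0.05, -0.21 and 0.27. The median correlation with named spots of the same direction was 0.837 for mec-7, 0.661 for mec-4 and 0.637 for alr-1, and correlations above 0.9 were found with 51, 12 and 19 of them.

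**Figure D5:**
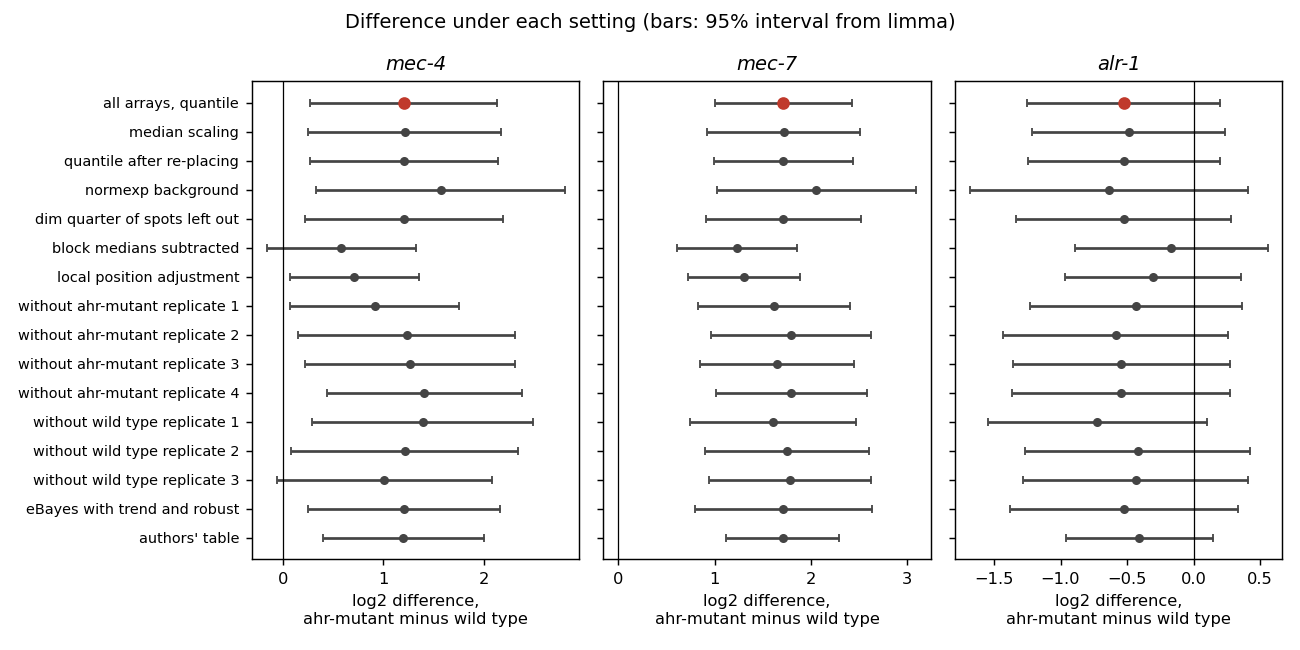
Difference between the strains (log2, ahr-mutant minus wild type) of the 3 genes under each processing setting, with 95% intervals from limma. The first line (red) is the value reported, and the other lines change 1 choice each, except the authors' table, which has its own scaling, 1290 rows in the fit and for alr-1 only 3 mutant arrays. The mec-7 interval stays above 0 in every line, the mec-4 interval includes 0 with block medians subtracted and without wild-type replicate 3, and the alr-1 interval includes 0 in every line.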

How the data were processed

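The authors deposited 1 linear intensity per spot and array. Per the labels, cDNA was labelled with Cy3. No label or header names the scanner, the software or any background correction. The values in the authors' deposited table are a ratio: signal times a constant per array, divided by a constant per row, as found by matching rows to spots (1080 of 1290 rows, within 0.0001 log2). Platform annotation names the rows, and symbols follow the WBcel235 gene table. Spots outside the table are unnamed here.

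Intensities that were blank, 0 or below were left out. Each array was quantile normalized on the log2 scale. ahr-mutant replicate 1 was then re-placed in the order of the source plates (384 wells) from 351 spots whose exact table value occurs once in its file. Spots between neighbouring located spots of equal shift were placed (72.5%). Of 284 located spots left out in turn, 282 were put back.

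Spots with at least 2 values per strain were compared with limma 3.58.1 in R 4.3.3 (two-sided, no covariate, Benjamini-Hochberg, threshold 0.05), and single genes also by an exact permutation test over the 35 splits of the arrays. The placing and the limma steps were tested on simulated data. The local adjustment subtracts, per array, the median deviation of spots within 5 rows and columns in the same block.

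Named genes are the 3 members, the 3 spots most correlated with each, and every listed gene with a named row. Members and lists were chosen with earlier results of these data known. The number of arrays limits the precision. Alternatives changed the normalization, background, dim-spot filter, position adjustment, variance model and arrays used.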

Additional observations from a re-analysis of the deposited data

Results flagged for a closer look

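The 4 mutant values of 21 genes were screened for an outlying array, which chance gives in about 1 of 20 genes, and 3 genes had one. For lin-39 this was ahr-mutant replicate 3, at 15.61 on the log2 scale with 15.27 as the next highest. For M01E11.1 and slc-17.9 it was ahr-mutant replicate 1, at 17.42 (next highest 16.68) and 18.53 (next highest 18.32). The values of mec-4, mec-7 and alr-1 had no such sample.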

How the results depend on the processing

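All 15 alternatives kept the direction of mec-4 (1.49-fold to 2.97-fold higher), mec-7 (2.35-fold to 4.16-fold higher) and alr-1 (1.12-fold to 1.65-fold lower). In the 14 that were fitted over all spots, limma adjusted p lay between 0.507 and 0.856 for mec-4, 0.131 and 0.549 for mec-7, and 0.591 and 0.949 for alr-1. Leaving out 1 array at a time gave log2 differences of 0.91 to 1.41 for mec-4, 1.61 to 1.80 for mec-7 and -0.72 to -0.42 for alr-1. Over the rows of the authors' deposited table alone, mec-4 (log2 difference 1.20, limma adjusted p = 0.0172) and mec-7 (1.71, limma adjusted p = 0.00225) passed, as did 84.5% of its rows, so passing there is not independent evidence.

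Over all spots 2 passed at a limma adjusted p under 0.05, with 1778 at an unadjusted p under 0.05. Block medians gave 1 and the local adjustment 8. Median scaling, normexp, leaving out dim spots, eBayes with trend and robust, and leaving out any 1 array each gave 0, with between 1253 and 2056 spots at an unadjusted p under 0.05. Median scaling moved the share of higher spots among the latter from 53.6% to 42.01%. Leaving out 1 array gave shares from 43.6% (without wild-type replicate 3) to 59.6% (without ahr-mutant replicate 2). The cause of these changes was not tested. No paired analysis was possible because the sample numbers in the labels are not shared between the strains. The smallest signals do not reach 0, with 1st percentiles between 15336 and 21255 intensity units, so folds of dim spots may be understated.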

Other observations

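The WBcel235 gene table places mec-4, mec-7 and alr-1 on the X chromosome. Of the 781 named spots, 117 (15.0%) belong to X, with 14.4% of the 306 that had higher means in the mutants and 15.4% of the 475 that had lower means.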
